A study of Caenorhabditis elegans with 2 samples.

Results

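The material is the 5805 regions on chromosome V of the 30000 regions that the authors called on the pooled reads of a ZIM-3 ChIP-seq experiment in Caenorhabditis elegans. They were taken by a single criterion, the chromosome given for each region on the ce11 assembly, so no measured value entered the choice. Chromosome V is the longest chromosome, with 20.9 Mb or 20.9% of the nuclear assembly, and it held 19.35% of the pooled regions. The replicate lists, each of 30000 regions, placed 5819 regions (replicate 1) and 5812 regions (replicate 2) on V.

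ZIM-3 is a zinc finger protein that serves the pairing centres of I and IV, the sites at which homologous chromosomes meet in meiosis. A related protein, ZIM-2, serves the pairing centre of V, so V carries no known pairing centre of ZIM-3. The autosomes of C. elegans have gene-dense centres with many conserved genes and arms that recombine more and hold more repeats and more young gene families. V is known for its tandem families of chemoreceptor genes (names such as srh, str and srw), which encode seven-transmembrane receptors expressed mainly in sensory neurons.

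Chromatin was precipitated with an anti-GFP antibody from whole animals of strain OP581, which carries unc-119(tm4063) III and the transgene wgIs581, a stable insertion that expresses ZIM-3 fused at its C-terminus to GFP and FLAG. The animals were young adults, males and females pooled, collected 54.5 h after growth was synchronised from L1 larvae starved after bleaching. There were 2 biological replicates of this 1 group, each a population of animals, so no condition could be compared and V was set beside the other 4 autosomes. The control library named in the labels was not analysed here, nor was any sample of an untagged strain. A separate label field names zim-3 itself as the antibody. Whole animals mix germline and somatic nuclei, so a region cannot be assigned to a tissue.

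Some sequences around summits of V are shown first as examples of where the strongest regions lay: at snoRNA genes, at a tRNA gene, in an intron and upstream of a protein-coding gene. Exons and sequence between genes also held regions of this strength. A summit is the position that the authors gave as the highest point of a region. Each line gives 151 bases of the plus strand of ce11 (RefSeq), centred on the summit. The first is centred at V 8500576 beside the snoRNA gene ZK994.7, the next at V 12303609 in the snoRNA gene C51F7.4, then V 15873980 beside the snoRNA gene T06C12.16 and V 12002205 in the tRNA gene WBGene00014406. In these 4 lines, capitals mark the annotated small RNA gene. The last lines are centred at V 53486 in an intron of the chemoreceptor gene srt-52 and at V 10897357 upstream of sec-61.G, and there capitals mark the 11 bases around the summit.
ZK994.7: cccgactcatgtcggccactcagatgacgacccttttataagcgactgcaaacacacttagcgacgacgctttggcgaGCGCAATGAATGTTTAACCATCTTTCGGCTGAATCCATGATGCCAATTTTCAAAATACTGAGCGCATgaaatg
C51F7.4: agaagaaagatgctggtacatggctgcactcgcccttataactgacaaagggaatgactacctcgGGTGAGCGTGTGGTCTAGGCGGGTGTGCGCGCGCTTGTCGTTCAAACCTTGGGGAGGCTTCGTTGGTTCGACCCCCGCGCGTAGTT
T06C12.16: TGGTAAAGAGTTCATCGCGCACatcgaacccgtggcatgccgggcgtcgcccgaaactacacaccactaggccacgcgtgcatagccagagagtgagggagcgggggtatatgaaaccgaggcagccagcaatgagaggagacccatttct
WBGene00014406: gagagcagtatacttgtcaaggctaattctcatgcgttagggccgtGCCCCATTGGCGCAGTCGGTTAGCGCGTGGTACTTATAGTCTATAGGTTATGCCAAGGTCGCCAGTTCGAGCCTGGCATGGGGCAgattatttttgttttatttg
srt-52: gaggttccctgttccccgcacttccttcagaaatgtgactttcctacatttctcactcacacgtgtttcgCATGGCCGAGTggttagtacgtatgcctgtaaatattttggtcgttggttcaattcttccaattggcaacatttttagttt
sec-61.G: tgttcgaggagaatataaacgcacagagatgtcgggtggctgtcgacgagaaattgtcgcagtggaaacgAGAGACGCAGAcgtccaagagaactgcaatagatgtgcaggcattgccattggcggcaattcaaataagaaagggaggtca

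These 6 sequences belong to the 25 regions of highest signal on V, all of which had a summit of each replicate within 200 bp. Signal is the height that the authors deposited for a region, on a scale that differs between lists. The 25 regions had pooled signals of 260.5 to 664.8 and pooled ranks from 4 to 142. Of them, 15 lay no more than 500 bp from a small RNA gene (tRNA, snoRNA or snRNA). Among all 5805 regions of V, 126 (2.17%) lay that near to one. By position, 1 was in the left arm and 6 in the right arm, against 18 in the chromosome centre. The centre held 3088 of the 5805 regions.

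The highest region of V lay in an intron of pxn-1, which encodes a peroxidasin of the extracellular matrix, with its summit 3 bp from the start of the snoRNA gene ZK994.7. Its signal was 480.9 in replicate 1 (rank 6), 176.8 in replicate 2 (rank 3) and 664.8 in the pooled list. The summit in C51F7.4, a snoRNA gene inside the FERM domain gene frm-7 (V 12302484 to 12306974), had 490.2 in replicate 1, 163.7 in replicate 2 and 655.2 pooled. Both summits stood among the 7 highest regions of each replicate list. The summit 43 bp upstream of the snoRNA gene T03F7.8, inside the cuticlin-like gene cutl-18, had 360.7 in replicate 1, 148.4 in replicate 2 and 506.8 pooled. T06C12.16, near the nuclear hormone receptor gene nhr-102, was the highest of the right arm, with 335.1 in replicate 1, 107.0 in replicate 2 and 441.7 pooled. Y75B12B.12, a snoRNA gene next to the cyclophilin gene cyn-3, had 310.0 in replicate 1, 117.7 in replicate 2 and 430.4 pooled. Thus the 5 highest regions of V had pooled summits within 54 bp of a snoRNA gene. Each of these had a summit of both replicates within 25 bp.

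The highest region of V that was not near a small RNA gene lay at the left end, in an intron of srt-52 (V 49956 to 56046, minus strand), a chemoreceptor gene of the srt family. Its signal was 258.6 in replicate 1 (rank 44), 105.0 in replicate 2 (rank 37) and 367.4 pooled (rank 38). This summit was 2560 bp downstream of the annotated start of srt-52, so it was not counted at a chemoreceptor start. Y39B6A.43 had a summit 28 bp upstream of its start, with 240.0 in replicate 1, 92.4 in replicate 2 and 335.4 pooled. The summit 214 bp upstream of sec-61.G, which encodes the gamma subunit of the Sec61 translocon of the endoplasmic reticulum, had 250.7 in replicate 1, 68.7 in replicate 2 and 325.7 pooled. In the intron of unc-41, which encodes a stonin-like protein of synaptic vesicle recycling, a summit lay 30 bp from the snoRNA gene C27H6.5, with 220.6 in replicate 1, 104.9 in replicate 2 and 330.0 pooled. Among tRNA genes of V, WBGene00014423 in the sugar transporter gene swt-5 reached a pooled signal of 303.2 and WBGene00014406, upstream of the guanylyl cyclase gene gcy-33, one of 302.4.

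The letters GTTCGANNC, part of the internal B box that RNA polymerase III genes such as tRNA genes carry, were searched on both strands in the 151 bp around each summit. They were chosen after the sequences had been seen. They occurred at 6 of the 25 highest regions of V, among them C51F7.4 and WBGene00014406. Of the peaks of V in the authors' reproducible list, 13 of 129 (10.1%) held them, against 12.2% of 591 peaks on I to IV. All 13 were among the 33 peaks of V at such small RNA genes (39.4%), and 0 of the other 96 held them, which allows a share of up to 3.12%. On I to IV the letters were in 53 of 162 peaks at small RNA genes (32.7%) and in 19 of the other 429 (4.43%). Over all pooled regions the shares were 1.95% on V and 2.05% on I to IV, and over all consecutive windows of 151 bp 1.24% of V and 1.14% of I to IV. Only GTTCGANNC was counted, and near forms were not searched. The near form GTTCAATTC, for example, is in the tRNA gene WBGene00014423 and at the srt-52 summit, which is among the other 96 peaks. The 0 of 96 is thus for the exact letters only. A match describes letters in a window and nothing was drawn from it about a factor.

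The reproducible list is the authors' optimal list under the irreproducible discovery rate (IDR), a procedure that keeps regions whose ranks recur between replicates. It held 906 peaks, which were the 906 highest pooled regions, all at a signal of 140.7 or more. On V it held 129 of the 5805 regions, or 2.22% (95% Clopper-Pearson interval 1.86 to 2.63%, counting error over regions only). The share was 3.02% over the whole series and 3.12% on I to IV, with 2.74% on I, 2.95% on II, 3.53% on III and 3.30% on IV. V thus had the lowest share of the 5 autosomes.

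V was thinner in regions than I, II and III and denser than IV. It held 277.4 pooled regions per Mb, against 319.5 on I, 321.9 on II, 343.2 on III and 254.8 on IV (mean 309.8 ± 38.2, SD, n = 4 chromosomes). The difference of V from that mean, -32.4 regions per Mb, was smaller than the spread between the other autosomes (exact permutation test over the 5 autosomes, 2-sided, p = 0.6). With summits within 10 kb of each other joined, it was 1.67 per Mb. For IDR peaks, V was the lowest of the 5, with 6.17 per Mb against 8.76 on I, 9.49 on II, 12.1 on III and 8.403 on IV (mean 9.69 ± 1.68, SD, n = 4 chromosomes). This difference of -3.53 per Mb was larger than the SD of I to IV, with p = 0.4 in the exact permutation test. With 5 chromosomes the smallest p that this test can give is 0.2, so no difference of V from the other autosomes could pass 0.05. Regions of a chromosome are not replicates, and no test over regions was made.

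The deficit of V was graded by signal. V held 14.2% of the pooled regions at ranks 1 to 906, 17.6% at ranks 907 to 3000, 17.4% at ranks 3001 to 6000, 19.5% at ranks 6001 to 12000 and 20.15% at ranks 24001 to 30000, against 20.9% of the length. Its density relative to that of all 5 autosomes was 0.71 in the first of these classes and 0.96 in the last. The replicate lists were graded as well, with 144 regions of replicate 1 and 127 of replicate 2 at ranks 1 to 906 (15.9% and 14.02%), and 1221 and 1260 at ranks 24001 to 30000 (20.35% and 21%), the last of these not below the share of V in the length. V was the lowest autosome in the 3 highest classes, while IV was lower in the other 4.

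**Figure D1:**
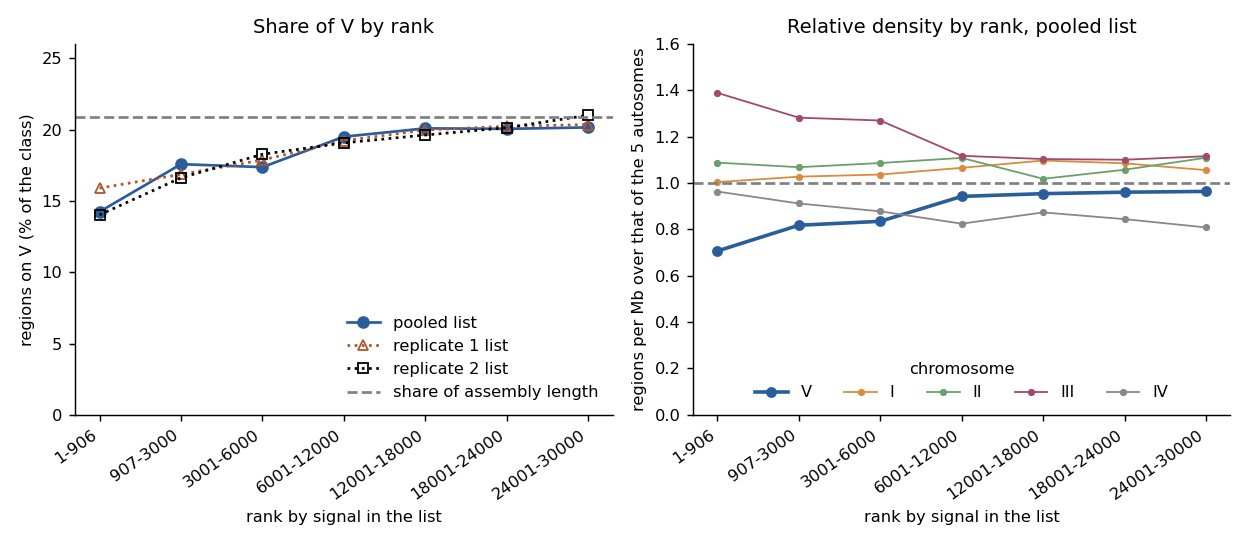
Left: regions on V as a percentage of all regions in each class of signal rank, for the pooled list and each replicate list, with the share of V in assembly length as a dashed line. Right: pooled regions per Mb of each autosome divided by the density of all 5 autosomes in the same class, where V climbs to 0.96 at the lowest ranks from 0.71 at the highest.

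The median signal of the pooled regions was 66.6 on V, against 67.0 on I, 67.7 on II, 68.3 on III and 68.03 on IV. V was lowest, and the exact permutation test gave the smallest p it can give, 0.2. In replicate 1 the medians were 50.4 on V and 51.0 to 51.7 on I to IV, and in replicate 2 they were 20.3 on V and 20.7 to 21.04 on I to IV. The 90th percentile of the pooled signal was 99.4 on V and 102.7 to 106.4 on I to IV. The 10th percentile was 53.2 on V and 53.1 to 53.4 on I to IV. The pooled list stops at a fixed number of regions, and its lowest signal was 50.5 on each of these chromosomes. The 10th percentile lies just above that cut and could hardly differ, so it cannot show whether the gap was confined to high signals. Among IDR peaks the median was 169.8 on V and 173.9 to 181.6 on I to IV. The number of reads behind these heights is not in the files used here, and library depth is therefore unknown.

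A summit of both replicates lay within 200 bp of 2753 of the 5805 regions on V, or 47.4% (46.1 to 48.7%, Clopper-Pearson). The share was 49.2% over the whole series, with 49.1% on I, 49.1% on II, 50.9% on III and 48.8% on IV (exact permutation test, p = 0.4). On V, replicate 1 matched 82.7% of the pooled regions and replicate 2 matched 61.6%. Another 2046 regions of V (35.2%) were matched by replicate 1 alone, 820 (14.1%) by replicate 2 alone and 186 (3.20%) by neither. Matching depended on rank, with 99.2% of V regions matched at ranks 1 to 906, 68.6% at ranks 6001 to 12000 and 9.68% at ranks 24001 to 30000, against 98.1%, 70.7% and 10.5% on I to IV. Of the 129 IDR peaks of V, 128 were matched in both replicates. The exception, in an exon of Y44A6C.1 at V 20715610, had a signal of 153.8 in replicate 1 and no replicate 2 summit nearer than 328 bp.

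The arms of V are taken here as the outer 25% of its length on each side, V 1 to 5231045 on the left and V 15693136 to 20924180 on the right. The left arm held 1421 regions (271.6 per Mb) and the right arm 1296 (247.8 per Mb), against 3088 in the centre (295.2 per Mb). Arms over centre gave a ratio of 0.880 on V (log2 -0.18), against 0.962 on I, 0.899 on II, 0.855 on III and 0.837 on IV. V lay in the middle of the autosomes, with a log2 difference of -0.01 from the mean of I to IV (exact permutation test, p = 1), and the sign of so small a difference changed in both replicate lists. The ratio itself stayed under 1 on V in replicate 1 (0.908) and in replicate 2 (0.89997).

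IDR peaks of V were also fewer per Mb in the arms. They numbered 23 in the left arm (4.40 per Mb) and 30 in the right arm (5.73 per Mb), against 76 in the centre (7.26 per Mb). The ratio of arms to centre was 0.697 on V (log2 -0.52), against 0.737 on I, 0.813 on II, 0.740 on III and 1.45 on IV, whose left arm alone held 57 peaks. The log2 difference of V from the mean of the others was -0.36 (exact permutation test, p = 0.4). It was 0.15 when the arms were the outer 33.3% on each side, and -0.09 without peaks near tRNA, snoRNA or snRNA genes. The left arm held 9 tRNA genes and the right arm 23 in 5.23 Mb each, against 46 in the 10.5 Mb of the centre, and their part in the result was not tested. Of the 33 IDR peaks near tRNA, snoRNA or snRNA genes, 9 lay in the arms, and of the other 96, 44 did.

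**Figure D2:**
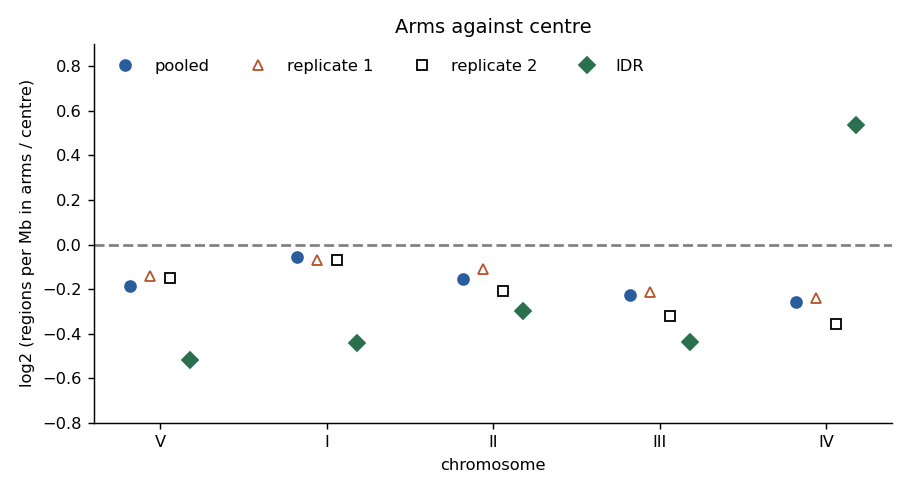
Log2 of the ratio of regions per Mb in the arms to regions per Mb in the centre, for each autosome and each list; 0 means equal density. The pooled and replicate values of V lie within the range of I to IV, and the IDR value of V, -0.52, is the lowest of the 5.

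The 21 bins of 1 Mb along V (the last of 0.924 Mb) held 221 to 335 pooled regions per Mb with a median of 276, and 1 to 11 IDR peaks per Mb. On I, II and III the bin medians were 318, 330 and 350 regions per Mb, and on IV 280. The densest bins of V were bin 1 at the left end (335), bin 12 (333) and bin 7 (330 with 11 IDR peaks). The thinnest were bin 19 (V 18000001 to 19000000, 221), bin 3 (V 2000001 to 3000000, 226 with 1 IDR peak) and bin 4 (230). Bin 3 had 204 regions in replicate 1 and 227 in replicate 2, and bin 19 had 231 and 212, so both bins were thin in each replicate. Over the 21 bins the counts of the replicates had a Spearman rho of 0.80, as a description, since bins of 1 chromosome share both libraries.

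The highest region of each bin reached from 151.2 in bin 4, near C36C5.14, to 664.8 in bin 9 at pxn-1. Bin 3 peaked 286 bp upstream of lbp-9, a lipid-binding protein gene, with 133.3 in replicate 1, 25.9 in replicate 2 and 159.4 pooled. Replicate 2 gave this summit rank 7473 and replicate 1 gave it rank 432. Bin 5 peaked 350 bp beyond the end of hsp-6, which encodes the mitochondrial HSP70, and 351 bp from the start of another gene. This summit had 185.7 in replicate 1, 77.5 in replicate 2 and 259.5 pooled. Bin 2 peaked in an exon of the immunoglobulin-domain gene zig-11 (244.7 pooled), and bin 18 peaked 486 bp upstream of Y59A8B.24 (158.1 pooled). Bin 17 peaked at a tRNA gene 19 bp away, beside the chemoreceptor gene srh-269 and the cathepsin L gene cpl-1, with 180.5 in replicate 1, 89.1 in replicate 2 and 263.0 pooled.

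Thinner bins tended to hold more repeated sequence. A position was counted as repeated when the 31 bases starting there occur more than once in the reference, on either strand. This measure was added after the bins had been seen. It covered 29.3% of bin 3 and 15.6% of bin 19, against 2.80% of bin 13 and 3.62% of bin 12. Over the 21 bins its Spearman rho with regions per Mb was -0.69, that of pseudogene number -0.65 and that of chemoreceptor gene number -0.32. These are descriptions over neighbouring stretches of 1 chromosome. Repeated positions made up 12.8% of the left arm and 12.9% of the right arm, against 6.91% of the centre. Per Mb of unrepeated sequence the left arm held 311.6 regions and the right arm 284.5, against 317.1 in the centre. On the same scale V as a whole held 307.9, against 352.8 on I, 351.3 on II, 374.9 on III and 284.4 on IV, so its order among the autosomes was the same. Among the thinnest bins, bin 3 held 319.8 regions per Mb of unrepeated sequence, above V as a whole. Bin 19 held 261.9 and bin 4 held 256.6, both below it. The sources used here do not give how reads from repeated sequence were treated.

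**Figure D3:**
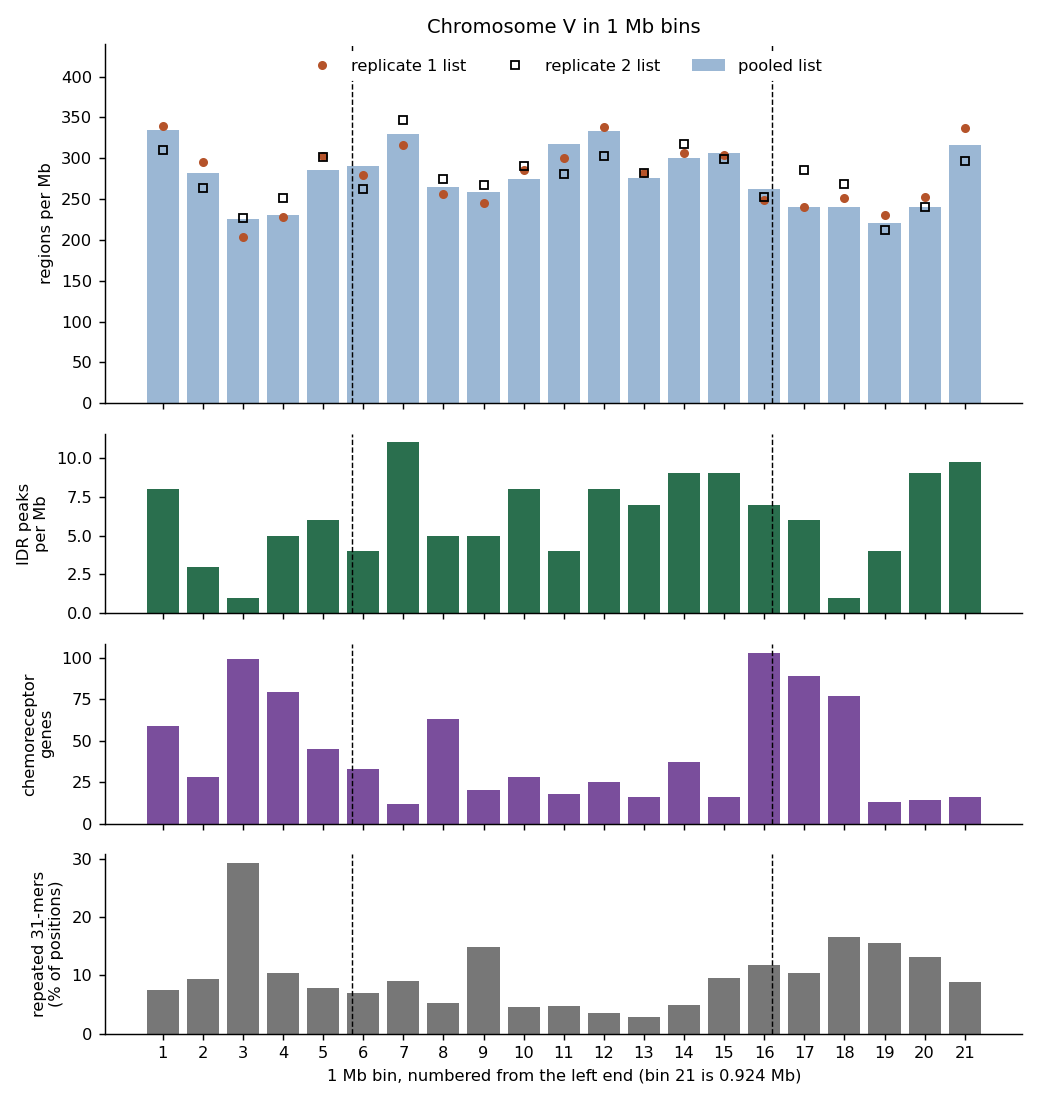
Measures in 1 Mb bins along V: regions per Mb in the pooled list (bars) and each replicate list (points), with dashed lines at the arm boundaries, IDR peaks per Mb, annotated chemoreceptor genes, and the percentage of positions whose 31-mer is repeated in the reference. Bin 3, with 226 regions, 1 IDR peak and 99 chemoreceptor genes, also has the most repeated sequence (29.3%).

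V held the longest stretch without a pooled region on any autosome, 226.3 kb from V 2340063 to V 2566345 in the left arm. At the mean density of V it would hold 62.8 regions. Neither replicate list had a summit more than 200 bp inside its ends, the limit also used for the other stretches. Around the same midpoint the summits of replicate 1 were 226.3 kb apart and those of replicate 2 were 239.3 kb apart. Repeated 31-mers covered 96.0% of it. It consists largely of a tandem duplication: V 2381136 to 2454636 recurs 108279 bp further on, at V 2489415 to 2562915, and the 73501 bases of the copies are 99.99% identical. The stretch holds 48 annotated protein-coding genes under only 27 different names. Of the 48, 19 are chemoreceptor genes. Genes named for their place in it, after it was seen, include str-267, srd-71 and srbc-81, each of which the annotation lists for more than 1 locus there. Here are 60 bases from the middle of the first copy, from V 2417886, and the same place in the other copy, from V 2526165, with 0 differences between them.
copy 1: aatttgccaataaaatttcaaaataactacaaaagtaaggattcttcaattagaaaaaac
copy 2: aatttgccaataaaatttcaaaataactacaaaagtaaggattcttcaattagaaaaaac

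The next longest stretch, 94.2 kb from V 8806835 to V 8901012 in the centre, had 92.0% repeated 31-mers and also held a duplication. Its copies of 26810 bp lie 42094 bp apart and are 99.996% identical, and 14 of its 26 protein-coding genes encode histones. It had 0 regions in replicate 1 and 1 in replicate 2. V has 27 histone genes, including the 14 of this stretch without pooled regions. Of the 27, 8 (29.6%) had a pooled region within 1 kb of the start, against 47.6% of all protein-coding genes of the genome. None had an IDR peak, which allows a share of up to 11.1%, against 2.5% of all protein-coding genes. Those with the highest were the divergent pair his-35 and his-41, which share a summit of signal 108.6. Since copies of histone genes are near-identical, which copy a read came from is uncertain.

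The third stretch, 55.8 kb from V 10603853 to V 10659623, differed from these in that 16.6% of it was repeated, and it too had 0 regions in both replicates. V had 3 stretches over 50 kb, against 1 each on I, II and III and 19 on IV. The longest of IV, 156.3 kb, held 710 piRNA genes and 10.9% repeated 31-mers. The cluster of 5S rRNA and SL1 spliced leader genes on V, 16.2 kb from V 17115903 to V 17132107 with 14 of the 15 rRNA genes of V, had 82.8% repeated 31-mers. It had 0 pooled regions, 0 in replicate 1 and 1 in replicate 2. A pooled region of signal 113.5 lay 1772 bp beyond its end. Only 35 pooled regions of V (0.603%) had more than 50% repeated 31-mers around the summit, against 0.830% on I to IV.

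**Figure D4:**
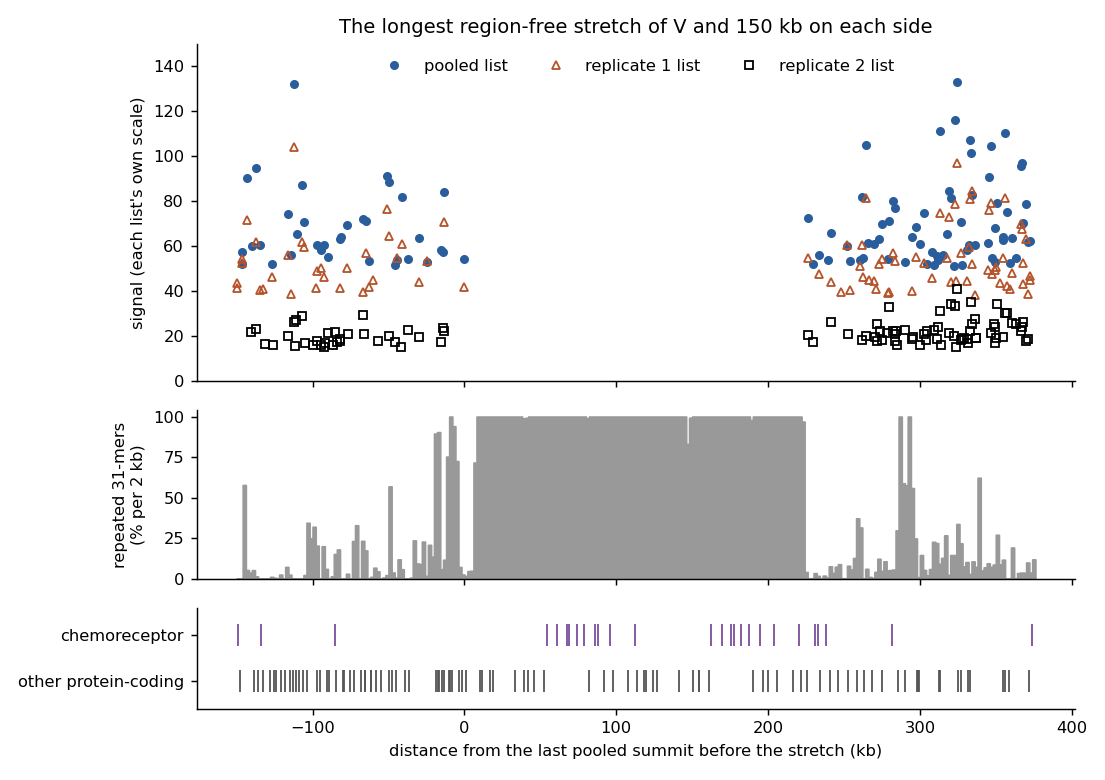
The longest region-free stretch of V with 150 kb on each side, by distance in kb from the last pooled summit before it, with (top) the signal of each region in the pooled and replicate lists, each on its own scale, (middle) the percentage of repeated 31-mers in steps of 2 kb and (bottom) the starts of chemoreceptor and other protein-coding genes. No list has a summit more than 200 bp inside the stretch of 226.3 kb, where 96.0% of positions are repeated.

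Chemoreceptor genes of V had fewer regions at their starts than the other protein-coding genes. V carries 890 of them among 4994 protein-coding genes (17.8%), against 34 on I, 169 on II, 31 on III and 152 on IV. They make up 26.7% of the genes of the left arm and 21.7% of the right arm, against 315 of 2624 genes in the centre. Of the 890, 271 had a pooled region within 1 kb of the start (30.4%, Clopper-Pearson 27.4 to 33.6%), against 1886 of the 4104 other genes of V (46.0%, 44.4 to 47.5%) and 47.6% of all protein-coding genes of the genome. On I to IV the shares were 28.0% of 386 chemoreceptor genes and 50.4% of the others, so chemoreceptor genes were lower there as well. The difference on V was -15.5 percentage points in the pooled list, -15.5 in replicate 1 and -11.3 in replicate 2. Genes are not replicates, so no test was made.

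The low share held in the arms and in the centre. In the left arm 32.8% of 323 chemoreceptor genes had a region, against 45.8% of the others. In the centre the values were 27.0% of 315 and 47.5%, and in the right arm 31.7% of 252 and 42.3%. Among families with at least 30 genes on V, the share ran from 18.2% in srsx (6 of 33) and 22.1% in srbc (15 of 68) to 38.7% in srd (12 of 31) and 40.5% in srj (15 of 37). The largest families had 55 of 180 (srh), 55 of 157 (str) and 36 of 95 (srw).

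The bodies of chemoreceptor genes were thin as well. They held 208.9 summits per Mb on V, against 345.1 in the bodies of other protein-coding genes, and on I to IV 183.9 against 352.7. Per Mb of unrepeated sequence the values on V were 230.5 and 373.0. Among V genes whose bodies held under 10% repeated 31-mers, the shares with a region at the start were 31.5% of 747 chemoreceptor genes and 48.4% of 3461 others. Median signal in the bodies was 62.5 for chemoreceptor genes and 67.1 for the others.

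GC content moved with these values. The mean GC content within 1 kb of the start was 34.3% ± 2.59 (SD, n = 890) for chemoreceptor genes and 35.5% ± 3.39 (SD, n = 4104) for the others. It was 40.5% in the pooled regions of V, against 35.4% for the whole chromosome. When the genes of V were put into 4 classes of rising GC, a division made after the data were seen, the shares with a region were 15.6%, 28.3%, 39.4% and 58.5% for chemoreceptor genes. For the other genes they were 21.6%, 37.8%, 52.3% and 67.9%. The share thus climbed with GC in both sets, and chemoreceptor genes were lower in each class.

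**Figure D5:**
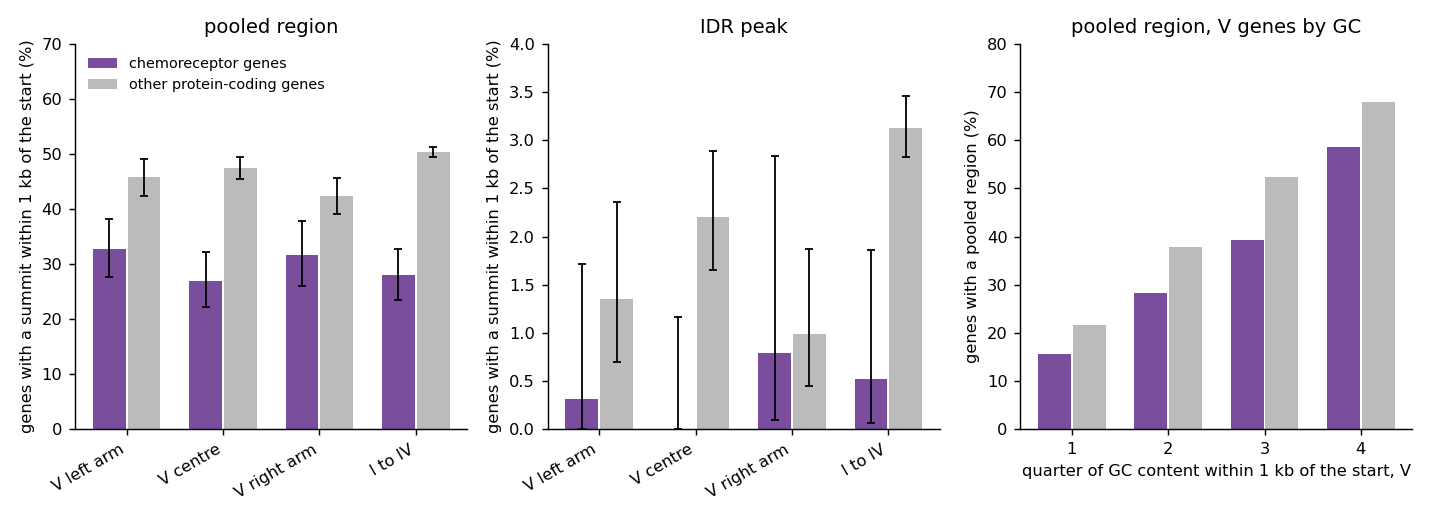
Percentage of chemoreceptor genes and of other protein-coding genes with a summit within 1 kb of the start: pooled regions (left) and IDR peaks (middle) by part of V and on I to IV, with 95% Clopper-Pearson intervals, and pooled regions on V by class of GC content (right). Chemoreceptor genes are lower in every pair of the left and right panels, and 3 chemoreceptor genes of V have an IDR peak.

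IDR peaks at gene starts, by the same limit of 1 kb, were found for 3 of the 890 chemoreceptor genes (0.337%, 0.0696 to 0.982%), against 72 of the 4104 others (1.75%) and 2.5% of all protein-coding genes of the genome. The difference was -1.42 percentage points, against -0.628 with only the higher-signal peaks and -2.60 when any part of the gene counted. The 3 genes are srh-269, srw-85 and srh-2. The peak at srh-269 is the one 19 bp from a tRNA gene, described above with bin 17. The peak in an exon of srw-85 had 134.2 in replicate 1, 52.8 in replicate 2 and 176.4 pooled. The peak upstream of srh-2 had 129.7 in replicate 1, 44.3 in replicate 2 and 170.0 pooled, and it lies nearer, at 272 bp, to the start of another gene. The next highest regions at chemoreceptor starts had signals of 119.1 (srz-97, 55 bp from an snRNA gene), 114.2 (srbc-58), 111.4 (srx-21), 110.0 (srj-6), 109.1 (srh-34), 103.3 (str-90) and 99.3 (srt-29). At srh-34 replicate 1 had 97.6 and replicate 2 had no summit within 200 bp.

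Over all regions of V, 1342 (23.1%) lay within 500 bp of a protein-coding start, 1988 (34.2%) in other exons, 1247 (21.5%) in introns and 1228 (21.2%) between genes. On I to IV the shares were 21.7%, 36.4%, 23.4% and 18.5%. By the same classes, other exons cover 22.7% of the length of V, introns 24.3% and sequence between genes 30.4%. On I to IV other exons cover 20.6 to 24.4%, introns 26.5 to 35.5% and sequence between genes 22.4 to 33.1%. V had the highest promoter share of the 5 autosomes, 1.46 percentage points above the mean of the others (exact permutation test, p = 0.2), and also the most protein-coding genes per Mb, 238.7 against 187.6 to 225.7. By the same limit, promoters cover 22.7% of V, against 17.8% of I, 21.1% of II, 17.7% of III and 17.6% of IV, so V also had the largest share of its length in promoters. The 23.1% of V regions at promoters was thus near the covered share. The shares of regions were 21.5% on I, 22.3% on II, 20.9% on III and 21.9% on IV, each further above the covered share than on V. Of the 129 IDR peaks of V, 45 were at promoters, and 3.35% of promoter regions of V were in the IDR list, against 5.20% on I to IV. The share was also lower on V between genes (2.12% against 4.28%) and in introns (2.41% against 2.94%). In exons it was 1.41% against 1.42%.

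Other gene lists of V fell on either side of the 47.6% of all protein-coding genes with a region at the start. An IDR peak lay at the start of 2.5% of all protein-coding genes. Of 8 cytosolic ribosomal protein genes, 7 had a region (87.5%, 47.3 to 99.7%) and 3 an IDR peak. Of these 3, rpl-39 and rps-30 share a summit, with a pooled signal of 150.8. The highest was at rps-27, with 131.6 in replicate 1, 65.9 in replicate 2 and 190.5 pooled. Its summit lay 804 bp downstream of the rps-27 start, beyond the end of the gene. Of 14 heat shock and chaperonin genes, 10 had a region (71.4%, 41.9 to 91.6%) and 4 an IDR peak. For regions, the intervals of both lists thus reach the 47.6% of all genes. The highest was at the cytosolic chaperone gene hsp-90, with 199.9 in replicate 1 (rank 126), 29.4 in replicate 2 (rank 4659) and 224.3 pooled. The replicates thus ranked this peak far apart. Its summit lay 836 bp downstream of the hsp-90 start and nearer, at 269 bp, to the start of another gene. The neighbouring hsp-16.48 copies, small heat shock genes, shared a summit of 148.8. Of 31 collagen genes, 21 had a region and 2 an IDR peak, at col-42 (164.1 in replicate 1, 36.0 in replicate 2, 201.0 pooled) and col-139 (154.1 pooled).

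Expanded families other than the chemoreceptors were mixed. Over all protein-coding genes of the genome, 47.6% had a region at the start and 2.5% had an IDR peak there. The Clopper-Pearson interval for IDR peaks of each family below includes this 2.5%. C-type lectin genes had a region in 46 of 86 cases (53.5%) and no IDR peak. Nuclear hormone receptor genes had a region in 62 of 167 (37.1%) and IDR peaks at nhr-68 (146.2 in replicate 1, 43.1 in replicate 2, 186.7 pooled) and at nhr-47 (167.0 pooled, a summit shared with the chaperone gene dnj-19). F-box genes had a region in 26 of 87 (29.9%) with 1 IDR peak, at fbxb-72 (180.0). UDP-glucuronosyltransferase genes had a region in 16 of 42 with 1 IDR peak, at ugt-40 (147.4), where the summit lay inside the snRNA gene F10D2.13. Cytochrome P450 genes had a region in 14 of 41 and no IDR peak, the highest at cyp-34A1 (78.4). Of the 3 BTB-MATH genes, 1 had a region, bath-36 (60.9), and V has no annotated major sperm protein gene. At 0 IDR peaks, up to 3.49% of C-type lectin genes and 7.32% of cytochrome P450 genes would still be allowed.

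Most tRNA and snoRNA genes of V had a region. A pooled region lay within 1 kb of 66 of 78 tRNA genes (84.6%) and 45 of 55 snoRNA genes (81.8%). Of the 46890 genes of any biotype in the genome, 37.1% had a region. These include 14999 piRNA genes on I to IV, of which 11.0% had a region. Of all protein-coding genes, 47.6% had a region. IDR peaks lay at 23 tRNA genes (29.5%) and 13 snoRNA genes (23.6%), against 2.98% of all genes, and on I to IV at 41.9% of tRNA genes and 25.6% of snoRNA genes. Of 40 snRNA genes of V, 16 had a region (40.0%, 24.9 to 56.7%), against 72.1% of 86 on I to IV. The interval on V includes both the 37.1% of genes of any biotype and the 47.6% of protein-coding genes. Neighbouring genes can share a summit and are then each counted. The 33 IDR peaks of V near these genes had a median signal of 211.9, against 162.8 for the other 96. V carries 3.73 tRNA genes per Mb, against 3.73 to 4.64 on I to IV. Pseudogenes of V had a region in 269 of 867 cases (31.0%) and 1 IDR peak, and piRNA genes in 75 of 202 (37.1%), against 11.0% of 14999 piRNA genes on I to IV. The piRNA share on V was near that of genes of any biotype. On IV, the longest region-free stretch alone holds 710 piRNA genes.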

How the data were processed

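ZIM-3-GFP ChIP-seq of 2 biological replicates was analysed from the region lists the authors deposited: 30000 regions per replicate, 30000 on pooled reads, and 906 optimal IDR-thresholded peaks, on ce10 and ce11. The height of a region is the signal value the authors deposited, on a scale specific to each list. Per the labels, a control experiment exists; the aligner, the peak caller, its thresholds and their versions were not stated in these sources. Most pooled regions have a fixed width (376 bp in 99.9%). Read depth is unknown.

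Summits (1-based, ce11, which matches WBcel235) were annotated with Ensembl release 115 genes and RefSeq sequence, in Python 3.11.15 with numpy 2.4.6, pandas 2.3.3 and scipy 1.17.1. A match between lists needed summits at most 200 bp apart. A summit within 500 bp of a protein-coding start was a promoter summit, then exon, intron or intergenic, in that order. V was set against I to IV by exact permutation over the 5 autosomes. Clopper-Pearson intervals (95%) and limits at a count of 0 (3 counts) cover counting error only. Chemoreceptor genes are 22 named families. The literal rule of names starting with sr or str- takes 906 genes on V, 16 more, such as serpins.

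The members and lists were chosen with earlier results of these data known. Named genes are those nearest to the 25 highest regions of V and to the highest region of each 1 Mb bin, the 10 chemoreceptor genes with the highest region at the start, and up to 4 per other list; genes of the duplicated stretch and Y44A6C.1 were named after their values were seen. Functions were tested on simulated summits. Alternatives were each replicate list, the higher-signal regions, other distances and arm limits, ce10, joined summits and unrepeated sequence.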

Additional observations from a re-analysis of the deposited data

How the results depend on the processing

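Of 53 alternative values for 9 results, 43 kept their direction and side of the threshold or stayed within the spread. The side of the threshold could not change, since the smallest p the permutation test can give is 0.2 and the chemoreceptor results had no test. With summits within 10 kb joined, the difference in pooled density between V and the mean of the other autosomes was 1.67 per Mb. The arm to centre difference of pooled regions (log2 -0.01) was 0.0156 without regions near tRNA, snoRNA or snRNA genes, and 0.0186 to 0.0867 when either replicate was left out. That of IDR peaks (log2 -0.36) was 0.15 with arms as the outer 33.3%. The chemoreceptor difference on V (-15.5 percentage points, pooled) was -20.9 within 500 bp of any part of the gene, and -15.5 to -11.3 when either replicate was left out. For IDR peaks it was -1.42, against -0.628 with the higher-signal peaks, -1.08 within 500 bp of the start, -2.60 for any part of the gene and -1.71 to -1.25 when either replicate was left out. The cause was not tested. Unrepeated sequence and genes under 10% repeated 31-mers were added after the data were seen. No paired analysis was possible because the 2 replicates form 1 group.

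Unknown depth, and a control library that was not used here, limit every density. All 3 full lists stop at 30000 regions, so a region missing from 1 of them was not necessarily without signal. Whether reads from repeated sequence entered the lists was not tested.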
